A study of Homo sapiens with 12 samples.

Results

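A set of 9 long noncoding RNA genes with a nuclear, imprinted or Polycomb-linked role were followed through an RNA interference experiment on PHF19. They are MALAT1, NEAT1, HOTAIR, HOTAIRM1, H19, KCNQ1OT1, MEG3, TUG1 and GAS5, taken by name as 9 of the 29972 gene rows in each of the deposited tables. The cells were 2 lines of triple-negative breast cancer, MDA-MB-436 and BoM-1833, the latter known as a bone-selected derivative of MDA-MB-231. Each line was transfected either with siNT, a commercial pool of non-targeting siRNAs, or with siPHF19, a 1:1 mixture of 2 siRNAs against PHF19, both at a total of 5 nM with the same lipid reagent, in the same medium, and taken for RNA after 72 h. There were 3 libraries in each of the 4 groups, 12 in all. PHF19 belongs to the Polycomb-like proteins, which join PRC2, the Polycomb complex that methylates histone H3 on lysine 27, and help it to find its sites. Since siNT and siPHF19 reagents are products of different makers, loss of PHF19 and other effects of those siRNAs cannot be told apart. The labels do not say whether replicates were separate cultures, so p-values measure the spread between these libraries, which may be technical.

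Long noncoding RNAs are transcripts that act without being translated. MALAT1 is retained in nuclear speckles, the bodies that store splicing factors, and NEAT1 is the scaffold around which paraspeckles form. HOTAIR and HOTAIRM1 are transcribed from the HOXC and HOXA clusters, and HOTAIR is the best known of the RNAs described as binding PRC2. H19, KCNQ1OT1 and MEG3 are imprinted, that is, transcribed from the chromosome of one parent. TUG1 has been described among PRC2-associated RNAs, and GAS5 is a host gene for small nucleolar RNAs that accumulates when growth stops and is otherwise degraded during translation.

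On GRCh38 with the GENCODE v29 annotation, the hg38 assembly being the one named in the submitters' processing notes, NEAT1 (ENSG00000245532.8) lies at chr11:65422774-65445540 and MALAT1 (ENSG00000251562.8) downstream of it at chr11:65497688-65506516, both on the plus strand. H19 is at chr11:1995176-2001470 and KCNQ1OT1 at chr11:2608328-2699994, both on the minus strand, the latter inside KCNQ1, which is read the other way. HOTAIR is at chr12:53962308-53974956 on the minus strand and overlaps HOXC11 on the opposite strand. HOTAIRM1 is at chr7:27095647-27100265 on the plus strand. MEG3 is at chr14:100779410-100861031 on the plus strand, TUG1 at chr22:30969245-30979395 on the plus strand, and GAS5 at chr1:173863900-173868882 on the minus strand, where it overlaps ZBTB37. The library kit keeps strand, but the sources do not state that counting used it, so reads of overlapping antisense pairs are uncertain.

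The libraries came from a messenger RNA kit, a type that as background pulls out RNA through its poly(A) stretches. Mature MALAT1 and the long form of NEAT1 are known to end without a poly(A) tail, so runs of A inside the transcripts are shown, because such a run is where oligo(dT) could pair. Each 30-base window below is taken from the longest GENCODE v29 transcript, and the capitals mark its longest run of A.
MALAT1: tctagcttAAAAAAAAAAAAAgcaaaagat
NEAT1: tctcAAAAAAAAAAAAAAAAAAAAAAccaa
TUG1: agctttAAAAAAAAAAAAAAAAAAggctga
GAS5: aaattccctctcAAAAAggtttaaagccat
The MALAT1 run of 13 A begins at base 8337 of the 8708 in the annotated transcript, near its 3′ end. A run as long is held by 26.7% of transcripts of like length. The annotation does not show where mature MALAT1 ends relative to this run. In NEAT1 the run of 22 A begins at base 18046 of 22743, a stretch present in the long transcript, while the other 7 annotated NEAT1 transcripts, of 512 to 3524 bases, have no run beyond 5 A. TUG1 holds 18 A from base 4138 of 7469, and GAS5 no more than 5 A in 1698 bases. Among transcripts of like length, 19.8% hold a run as long as that of NEAT1, 8.36% for TUG1 and 78.6% for GAS5. Whether priming at these runs contributed to the counts was not tested.

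Promoter windows were available in the RefSeq table (GRCh38.p14) for 5 of the 9 genes. Polycomb-like proteins are known to bind CpG-rich, unmethylated DNA, so 3 windows that span the range of CpG content are shown, from 250 bases before to 50 after the annotated start, with each CG in capitals. The first of 2 MALAT1 windows (chr11:65497488-65497787, plus strand) holds 37 CG and the second, not shown, 14; the GAS5 window (chr1:173868996-173869295, minus strand) holds 5, and the first MEG3 window (chr14:100825858-100826157, plus strand) 19.
MALAT1: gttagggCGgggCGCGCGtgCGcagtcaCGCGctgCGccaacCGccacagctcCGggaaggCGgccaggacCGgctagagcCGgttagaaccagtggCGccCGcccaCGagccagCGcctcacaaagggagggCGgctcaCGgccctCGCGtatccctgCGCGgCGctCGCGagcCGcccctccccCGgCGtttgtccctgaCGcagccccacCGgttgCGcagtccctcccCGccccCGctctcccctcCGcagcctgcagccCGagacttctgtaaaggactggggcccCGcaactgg
GAS5: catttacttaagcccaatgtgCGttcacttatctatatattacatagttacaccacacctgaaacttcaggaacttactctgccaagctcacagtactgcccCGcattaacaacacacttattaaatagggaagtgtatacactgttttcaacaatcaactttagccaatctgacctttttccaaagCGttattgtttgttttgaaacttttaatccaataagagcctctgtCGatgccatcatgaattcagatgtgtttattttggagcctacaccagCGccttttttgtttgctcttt
MEG3: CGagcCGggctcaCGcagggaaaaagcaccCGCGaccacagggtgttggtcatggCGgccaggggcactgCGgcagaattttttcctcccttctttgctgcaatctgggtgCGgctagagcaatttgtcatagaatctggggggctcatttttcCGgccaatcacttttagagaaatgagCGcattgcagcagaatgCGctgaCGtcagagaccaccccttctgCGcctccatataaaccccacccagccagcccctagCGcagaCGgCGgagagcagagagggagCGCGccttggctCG
The CG pair reads the same on both strands. Over all 35116 windows of 300 bases the median was 14 CG, and 96.0% held at least one. The TUG1 window held 28 and the H19 window 6. MALAT1, GAS5 and TUG1 were expressed in both lines and MEG3 and H19 in neither. Among these 5 genes, starts below and above the median therefore occurred on each side. The first MEG3 window held more CG than 57.1% of windows, so its CG count lay near the middle. That window is inside the GENCODE v29 span of MEG3 given above, so it is a RefSeq start and not the start of that span. The starts richest in CG, those of MALAT1 and TUG1, were of expressed genes. These windows describe sequence and carry no measurement of PHF19 binding or methylation.

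Depth, recovered from the deposited values as whole reads, was 15186338 to 24010271 reads per library in MDA-MB-436, and BoM-1833 libraries had 13748100 to 21258567. PHF19 itself had normalized counts of 3353 ± 411 in siNT and 327 ± 12.8 in siPHF19 libraries of MDA-MB-436 (SD, n = 3 each), and 1688 ± 20.9 and 185 ± 14.2 in BoM-1833 (SD, n = 3 each). Epithelial KRT8 and KRT18 and the markers VIM and CD44 were expressed in both lines, while KRT19 had 1 read over the 6 libraries of MDA-MB-436 and a mean normalized count of 5550 in BoM-1833. ESR1 and PGR were at a mean below 2 in both lines, but ERBB2 was at 1079 in MDA-MB-436, with 1080 in BoM-1833, so its transcript was not absent. Of markers of other cells, CD3E was at 0 in every library and CDH5 below 1 on average, whereas PECAM1 averaged 23.0 in MDA-MB-436 but 321 in BoM-1833. The leukocyte gene PTPRC averaged 0.311 in MDA-MB-436 but 17.5 in BoM-1833, and CTSK, an osteoclast marker, 33.7 and 24.0. LYZ, ACP5 and BGLAP stayed below 4 on average in both. Over all genes siNT replicate 1 stood apart in each line. Its chi-square per degree of freedom against the other siNT libraries was 11.9 and 21.3 in MDA-MB-436 (5.92 between those others), and 24.1 and 15.0 in BoM-1833 (7.84), while pairs of siPHF19 libraries were at 2.29 to 3.45. Changes of MALAT1, NEAT1, TUG1 and GAS5 are therefore also given without it. Results for neighbours, gene lists and classes are given with it only.

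A normalized count is a read count divided by the library's size factor, and a mean of at least 10 over a line's 6 libraries was the limit for calling a gene expressed. By that limit 6 of the 9 RNAs were expressed in MDA-MB-436 (MALAT1, NEAT1, HOTAIR, HOTAIRM1, TUG1 and GAS5), and 5 in BoM-1833 (MALAT1, NEAT1, KCNQ1OT1, TUG1 and GAS5). Of these, 4 were shared. HOTAIR lay just inside the limit in MDA-MB-436 with a mean of 11.4, and the nearest gene below it was H19 with 2.73. The tables of the lines were normalized separately, so levels are set side by side without a test between lines.

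**Figure D1:**
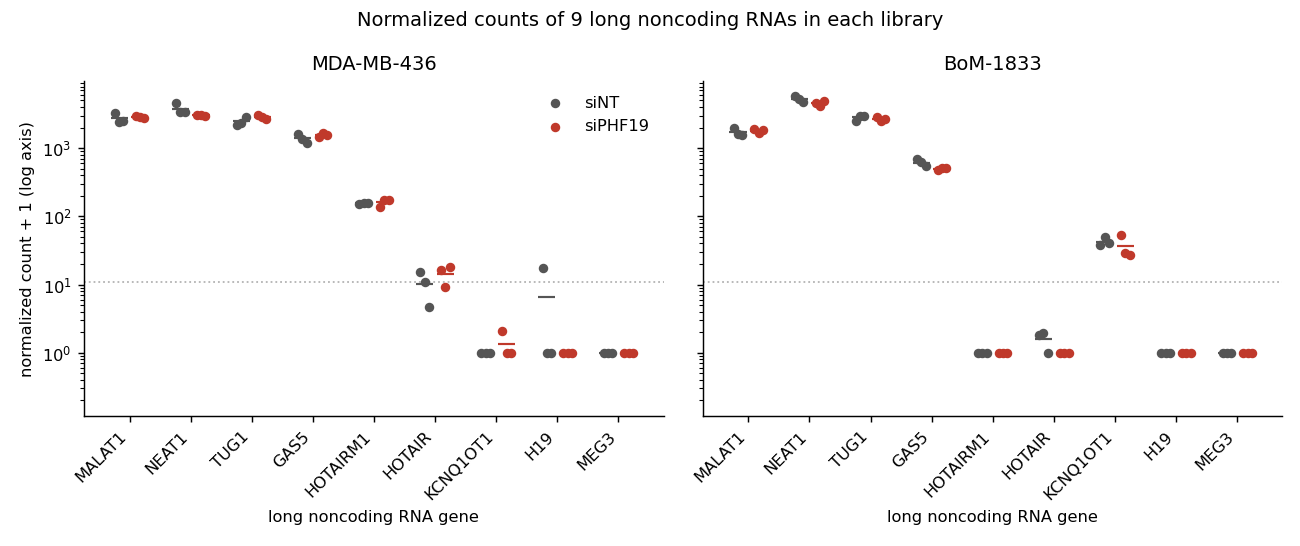
Normalized count plus 1 (log axis) of each long noncoding RNA in each library of MDA-MB-436 (left) and BoM-1833 (right); points are libraries, short lines are group means of 3 libraries, grey is siNT, red is siPHF19, and the dotted line marks the expression limit of 10. MALAT1, NEAT1, TUG1 and GAS5 are high in both lines, HOTAIRM1 is at 136 to 171 in MDA-MB-436 and at 0 in BoM-1833, and KCNQ1OT1 is expressed in BoM-1833 only by this limit.

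Since a longer RNA yields more fragments, levels were compared between genes per kilobase of the longest annotated transcript. In MDA-MB-436 the order of mean normalized counts per kb was GAS5 at 873, TUG1 at 357, MALAT1 at 323, HOTAIRM1 at 176, NEAT1 at 149 and HOTAIR at 4.71. TUG1 and MALAT1 were neighbours within their spread, at 331 ± 46.7 and 316 ± 55.7 per kb in siNT libraries (SD, n = 3 each), and so were HOTAIRM1 and NEAT1, at 173 ± 5.26 and 166 ± 29.3 (SD, n = 3 each). In BoM-1833 the order was TUG1 at 367, GAS5 at 328, NEAT1 at 214, MALAT1 at 202 and KCNQ1OT1 at 0.420. There TUG1 and GAS5 (377 ± 32.9 and 361 ± 43.8 per kb in siNT; SD, n = 3 each) lay within their spread.

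MALAT1 and NEAT1, usually counted among the most abundant nuclear RNAs, were not at the top per kb in these poly(A)-type libraries. In MDA-MB-436 71.1% of tested genes with a known length lay below MALAT1 and 51.4% below NEAT1, and in BoM-1833 58.4% and 60.1%. Per kb of the union of exons these shares were 78.2% and 59.7% in MDA-MB-436, and 66.9% and 68.9% in BoM-1833. GAS5 stood above 89.4% of genes in MDA-MB-436, and above 71.2% in BoM-1833. The order depends on the length used: over the union of exons GAS5 was at 408 per kb in MDA-MB-436, while BoM-1833 had 153, where it then came after MALAT1 (199). For NEAT1 the long transcript sets the length, and reads from its short form cannot be told apart in a gene-level count, so its place per kb is uncertain.

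NEAT1, the paraspeckle scaffold, was the only one of the 9 RNAs whose change after siPHF19 passed the test in either line, and it was lower. In MDA-MB-436 its normalized counts were 4534, 3400 and 3359 in siNT replicates 1, 2 and 3 and 3026, 3049 and 2980 in siPHF19 replicates 1, 2 and 3. All siPHF19 libraries lay below all siNT libraries, a separation seen for 42.2% of tested genes, and siNT replicate 1 stood above the other libraries. In the authors' deposited table the log2 fold change, siPHF19 over siNT, was -0.32 (SE 0.11; DESeq2 adjusted p = 0.0218), a 0.802-fold level. Without siNT replicate 1 the log2 change was -0.16, with a DESeq2 adjusted p of 0.0291. The call was lost with edgeR (log2 change -0.32, adjusted p = 0.0505) and when any 1 of the siPHF19 libraries was left out (log2 change -0.33 to -0.31, DESeq2 adjusted p from 0.0788 to 0.0927).

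In BoM-1833 the NEAT1 counts were 5754, 5168 and 4711 in siNT and 4655, 4107 and 4853 in siPHF19 libraries. The groups overlapped, through siNT replicate 3 and siPHF19 replicate 3. The authors' deposited table gave a log2 fold change of -0.20 (SE 0.08; DESeq2 unadjusted p = 0.0133, adjusted p = 0.0973). This missed the threshold, an adjusted p under 0.05. With 1 library left out it passed only without siNT replicate 3 (log2 change -0.27, DESeq2 adjusted p = 0.0161), and without siNT replicate 1 it was -0.12 (adjusted p = 0.225).

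One of the 6 expressed RNAs passed in MDA-MB-436, where 22.1% of all 14243 tested genes did, 10.5% as higher and 11.5% as lower. In BoM-1833 0 of 5 passed with DESeq2, where 10.9% of 12906 tested genes did, 5.21% as higher and 5.72% as lower. At an unadjusted p under 0.05, which 23.7% of genes reached in MDA-MB-436 and 15.0% of those of BoM-1833, there were 2 of 6 in the former (NEAT1 and TUG1) and 2 of 5 in the latter (NEAT1 and GAS5). edgeR called 0 in either line, beside 24.5% of 13977 genes in MDA-MB-436 and 11.2% of 13602 genes in BoM-1833. Without siNT replicate 1, DESeq2 called 3 of 5 tested in MDA-MB-436 (MALAT1, NEAT1 and GAS5), beside 20.3% of 13705 genes. In BoM-1833 that fit called 0 of 5, beside 17.0% of 12011 genes. Read against the shares with all libraries, the DESeq2 counts at an adjusted p under 0.05 do not set the RNAs apart from other genes. The higher count in MDA-MB-436 rests on leaving out 1 library, and its distance from the share was not tested.

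**Figure D2:**
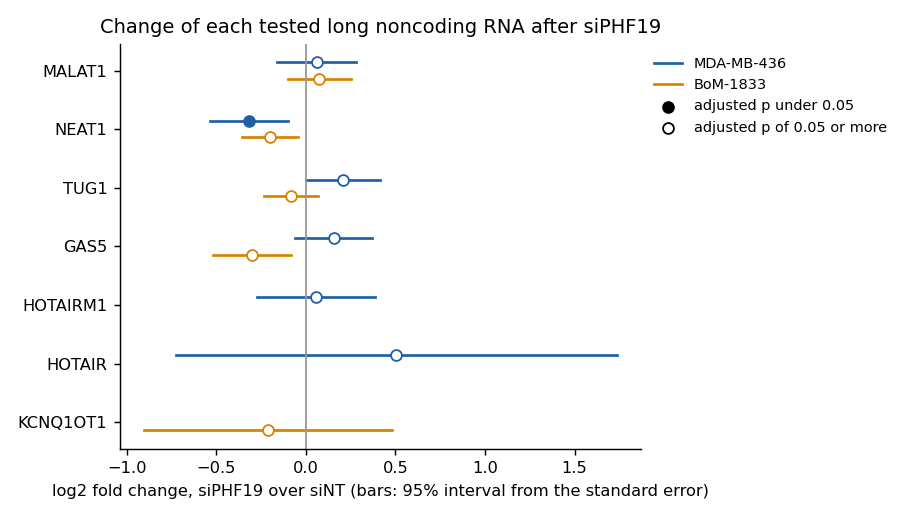
Log2 fold change, siPHF19 over siNT, of each tested long noncoding RNA, with bars for the 95% interval from the standard error per the authors' deposited table; blue is MDA-MB-436, orange is BoM-1833, and filled points have an adjusted p under 0.05. NEAT1 lies left of 0 in both lines and is filled in MDA-MB-436 alone, GAS5 lies on opposite sides of 0 in the lines, and HOTAIR and KCNQ1OT1 have the widest bars.

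MALAT1, the nuclear speckle RNA, showed no change past the threshold. Its normalized counts in MDA-MB-436 were 3308, 2415 and 2533 in siNT and 2982, 2813 and 2807 in siPHF19 libraries. In BoM-1833 they were 1946, 1618 and 1567 in siNT and 1919, 1656 and 1830 in siPHF19 libraries. The groups overlapped in both lines, and siNT replicate 1 was the highest library of each. The log2 fold changes per the authors' deposited table were 0.06 (SE 0.11) for MDA-MB-436, with a DESeq2 adjusted p of 0.762, and 0.07 (SE 0.09; adjusted p = 0.726) for BoM-1833. The 95% intervals ran from -0.16 to 0.28 and from -0.10 to 0.25. When siNT replicate 1 of MDA-MB-436 was left out, MALAT1 was higher by 0.21 (DESeq2 adjusted p = 0.00647), and that library decided its call. Without siNT replicate 1 of BoM-1833 it was 0.18 (DESeq2 adjusted p = 0.0819).

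MALAT1 and NEAT1 are read from neighbouring genes in the same direction, and both were highest in siNT replicate 1 of each line, so MALAT1 reads per NEAT1 read were taken within each library, where the size factor cancels. This ratio was chosen after the values had been seen, and it was not tested. In MDA-MB-436 it was 0.730, 0.710 and 0.754 in siNT and 0.985, 0.923 and 0.942 in siPHF19 libraries. In BoM-1833 it was 0.338, 0.313 and 0.333 in siNT and 0.412, 0.403 and 0.377 in siPHF19 libraries. All siPHF19 libraries lay above all siNT libraries in both lines. Set against every other tested gene in place of NEAT1, MALAT1 reads per read of the gene separated the groups in that direction for 17.3% of MDA-MB-436 genes and 10.1% of those of BoM-1833, with 4.57% doing so in both.

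**Figure D3:**
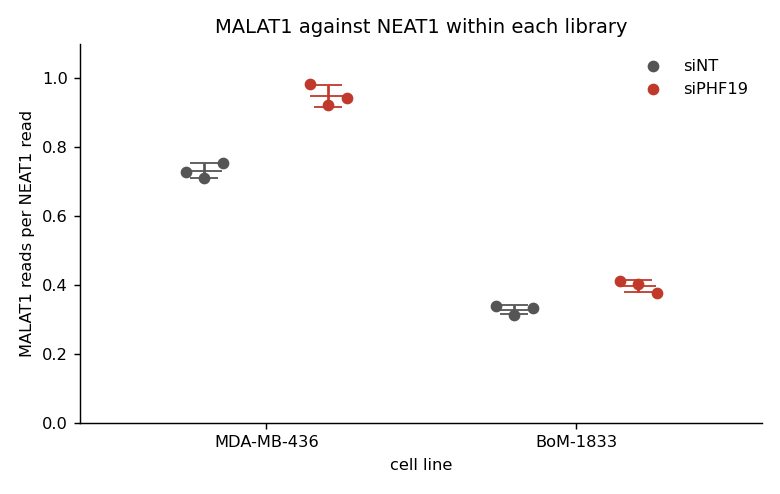
MALAT1 reads per NEAT1 read in each library, by cell line; points are libraries, grey is siNT, red is siPHF19, and bars are the mean ± SD of 3 libraries. The ratio is 0.710 to 0.754 in siNT and 0.923 to 0.985 in siPHF19 libraries of MDA-MB-436, and 0.313 to 0.338 and 0.377 to 0.412 in BoM-1833.

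GAS5, the growth-arrest RNA and host of small nucleolar RNAs, had log2 changes of opposite sign in the lines, neither past the threshold. In MDA-MB-436 its normalized counts were 1623, 1380 and 1206 in siNT and 1463, 1644 and 1578 in siPHF19 libraries, and the groups overlapped. In BoM-1833 they were 686, 617 and 537 in siNT and 471, 513 and 514 in siPHF19 libraries, with no overlap, as for 31.0% of tested genes there. The authors' deposited table gave log2 fold changes of 0.15 (SE 0.11; DESeq2 adjusted p = 0.340) for MDA-MB-436 and, for BoM-1833, -0.30 (SE 0.11; adjusted p = 0.0606). Leaving out 1 library brought a call in each line: 0.27 without siNT replicate 1 of MDA-MB-436 (DESeq2 adjusted p = 0.0111), and -0.39 without siNT replicate 3 of BoM-1833 (adjusted p = 0.0179). Without siNT replicate 1 of BoM-1833 it was -0.21 (DESeq2 adjusted p = 0.229).

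TUG1 had normalized counts of 2194, 2364 and 2865 in siNT and 3078, 2843 and 2641 in siPHF19 libraries of MDA-MB-436. In BoM-1833 they were 2535, 2976 and 2945 in siNT and 2824, 2496 and 2658 in siPHF19 libraries. The groups overlapped in both lines, and siNT replicate 3 was high among the MDA-MB-436 controls. In the authors' deposited table the log2 fold changes were 0.21 (SE 0.11; DESeq2 adjusted p = 0.153) and -0.08 (SE 0.08; adjusted p = 0.625). Without siNT replicate 3 of MDA-MB-436 the change there was 0.32 (DESeq2 adjusted p = 6.62e-04), and without siNT replicate 1 it was 0.13 (adjusted p = 0.317). In BoM-1833 it ran from -0.15, without siNT replicate 1, to -0.04 with 1 library left out, and did not pass (DESeq2 adjusted p from 0.0733 to 0.935).

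The difference of the log2 changes, MDA-MB-436 minus BoM-1833, was tested over 12290 genes, of which 4.89% passed. None of the 4 RNAs tested in both lines did by this z test, while 2 had an unadjusted p under 0.05, as 16.0% of all genes did. For GAS5 the difference was 0.45 (SE 0.16, 95% interval 0.15 to 0.76), with an unadjusted p of 0.00363 and a Benjamini-Hochberg adjusted p of 0.0654, from the DESeq2 estimates. For TUG1 it was 0.29, with an adjusted p of 0.230 from the DESeq2 estimates and an unadjusted p of 0.0269. For NEAT1 and MALAT1 it was -0.12 and -0.02 (adjusted p = 0.742 and 0.979 from the DESeq2 estimates). Neither the DESeq2 nor the edgeR interaction term called any of the 4, beside 901 of 14303 and 673 of 15035 genes.

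**Figure D4:**
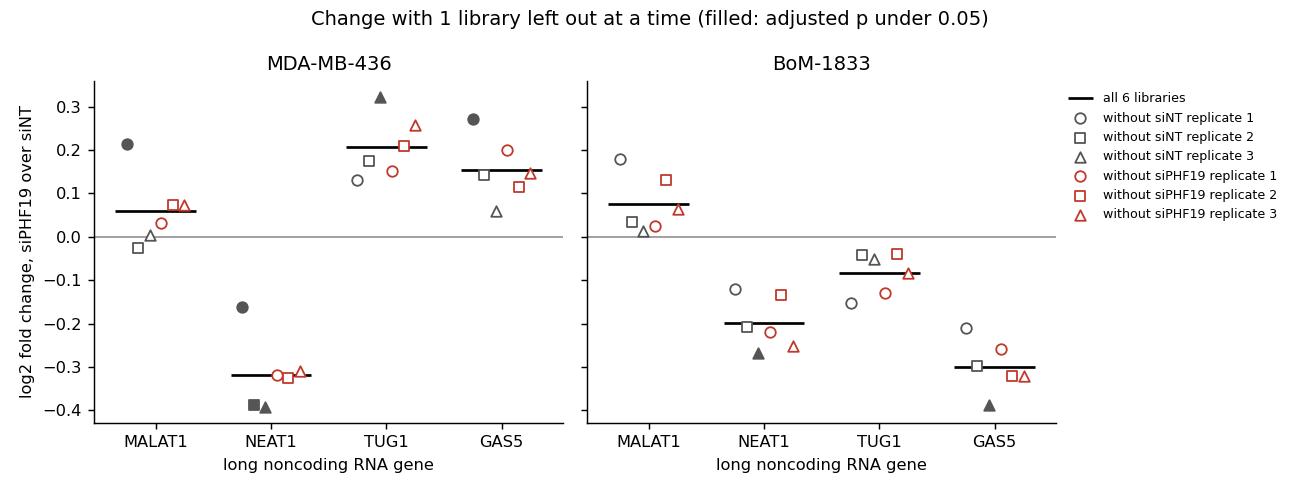
Log2 fold change, siPHF19 over siNT, of the 4 RNAs expressed in both lines with all 6 libraries of a line (black line) and with 1 library left out (symbols; grey for a siNT, red for a siPHF19 library; filled where the DESeq2 adjusted p is under 0.05). NEAT1 stays below 0 in all 12 fits and GAS5 in BoM-1833 in all 6, while MALAT1 in MDA-MB-436 runs from -0.03 to 0.21.

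HOTAIRM1, an RNA read from the HOXA cluster, was expressed in MDA-MB-436 alone by the limit used. Its normalized counts in MDA-MB-436 were 148, 157 and 157 in siNT and 136, 171 and 171 in siPHF19 libraries. In BoM-1833 it had 0 reads in all 6 libraries, which allows up to 3 reads in each, or 2.38 to 3.60 normalized counts. The groups overlapped in MDA-MB-436, and the authors' deposited table gave a log2 fold change of 0.06 (SE 0.17; DESeq2 adjusted p = 0.859).

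Of 7 neighbours of HOTAIRM1 with counts, 6 were tested in MDA-MB-436, and 2 rose and 1 fell, where 10.5% and 11.5% of all tested genes did. They had a median log2 fold change of 0.24 against -0.0022 over all tested genes. HOXA3, a homeodomain factor gene, had 254, 253 and 268 normalized counts in siNT and 374, 394 and 413 in siPHF19 libraries, with no overlap. HOXA3 and SKAP2, an adaptor gene beside the cluster, rose by 0.61 and 0.57 per the authors' deposited table (DESeq2 adjusted p = 7.03e-06 and 6.87e-07). HOXA5 fell by 1.04 per the authors' deposited table (DESeq2 adjusted p = 0.00224). The 95% interval of HOTAIRM1 itself ran from -0.28 to 0.39 on the log2 scale. HOXA2 to HOXA5 and HOXA7 were at 0 in every BoM-1833 library, as HOTAIRM1 was, whereas SKAP2 was expressed there.

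HOTAIR, the HOXC antisense RNA, was at the edge of detection. It had 13, 13 and 3 reads in siNT and 14, 10 and 16 in siPHF19 libraries of MDA-MB-436, or 14.2, 10.1 and 3.67 and 15.3, 8.28 and 16.9 normalized counts. In BoM-1833 there were 2 reads in all. The groups overlapped, and the log2 fold change per the authors' deposited table was 0.50 (SE 0.63, DESeq2 adjusted p = 0.627). Its 95% interval ran from -0.73 to 1.74, so neither a fall nor a rise within that range can be excluded. Without siNT replicate 3 the log2 change was 0.15 (DESeq2 adjusted p = 0.905). Of 8 tested HOXC neighbours in MDA-MB-436 (25.0% called, beside 22.1% of all tested genes) 1 rose (HOXC13, by 0.47 per the authors' deposited table, DESeq2 adjusted p = 0.0119) and 1 fell (HOXC6, by 0.60, adjusted p = 0.00627). HOXC11, the gene that overlaps HOTAIR, had a log2 change of 0.22 per the authors' deposited table (DESeq2 adjusted p = 0.657).

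**Figure D5:**
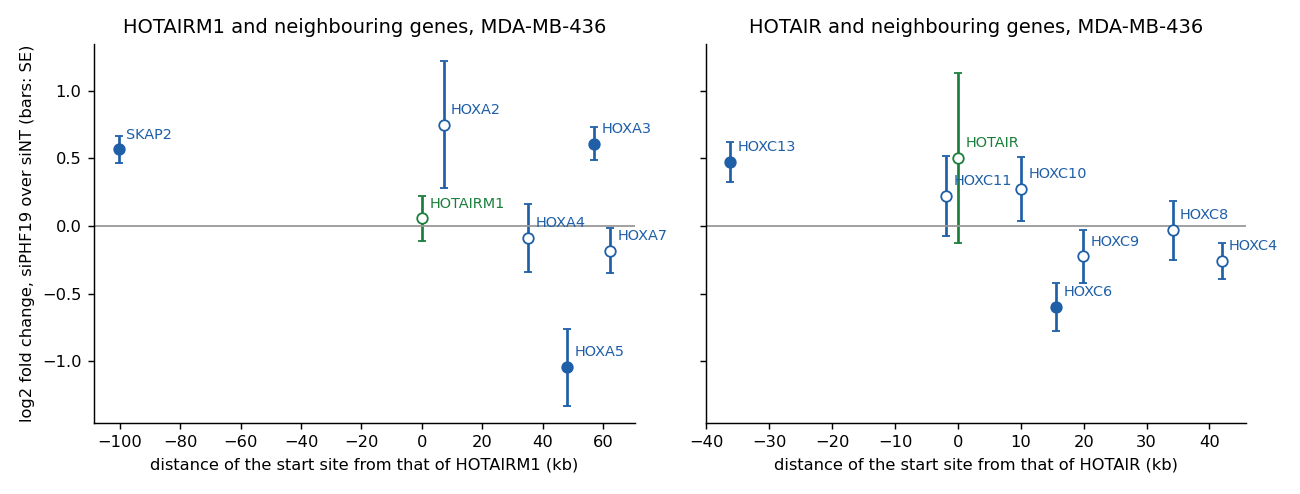
Log2 fold change, siPHF19 over siNT, in MDA-MB-436 for HOTAIRM1 (left, green) and HOTAIR (right, green) and neighbouring genes (blue), against the distance between start sites in kb; bars are standard errors, and filled points have an adjusted p under 0.05. HOTAIRM1 lies at 0.06, between HOXA3 at 0.61 and HOXA5 at -1.04, and HOXC13 and HOXC6 lie on opposite sides of 0 around HOTAIR.

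Among the imprinted RNAs only KCNQ1OT1 passed the expression limit, and only in BoM-1833. Its level there was 0.420 per kb of a 91.7 kb transcript, and 0.0% of tested genes with a known length lay below it. KCNQ1OT1 is read antisense from within KCNQ1 and is known for silencing neighbouring genes on the same chromosome. Its normalized counts were 36.5, 48.0 and 40.1 in siNT and 51.7, 28.3 and 26.4 in siPHF19 libraries of BoM-1833. The groups overlapped, with siPHF19 replicate 1 the highest of the 6, and the log2 fold change per the authors' deposited table was -0.21 (SE 0.35; DESeq2 adjusted p = 0.821). With 1 library left out it ran from -0.60, without siPHF19 replicate 1, to -0.04, without siPHF19 replicate 3, and did not pass (DESeq2 adjusted p from 0.531 to 0.987). In MDA-MB-436 it had 1 read in 1 library. KCNQ1, the potassium channel gene around it, showed the reverse: a mean normalized count of 116 in MDA-MB-436, but 0 in every BoM-1833 library.

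H19 had 15 reads in siNT replicate 1 of MDA-MB-436 and 0 in the other 11 libraries, so no difference between groups was drawn from it. MEG3 had 0 reads in all 12 libraries. A count of 0 allows up to 3 reads, or 2.33 to 3.67 normalized counts in MDA-MB-436. In the same imprinted domain MEG8, MEG9 and DLK1 were also at 0 in every library, while DIO3OS had 9 reads over the MDA-MB-436 libraries and 1 read in BoM-1833. Around H19 and KCNQ1OT1, 1 of 9 tested neighbours rose and 2 fell in MDA-MB-436 (33.3%, beside 22.1% of all tested genes). In BoM-1833 0 of 9 passed with DESeq2, beside 10.9% of all tested genes (2 at an unadjusted p under 0.05). The imprinted gene PHLDA2 fell by 0.46 in MDA-MB-436 per the authors' deposited table (DESeq2 adjusted p = 4.88e-06). CDKN1C, the imprinted cell cycle inhibitor, had log2 changes of 0.03 in MDA-MB-436 but -0.37 in BoM-1833 per the authors' deposited table (DESeq2 adjusted p = 0.876 and 0.0559).

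Other host genes of small nucleolar RNAs were set beside GAS5. In MDA-MB-436 3 of 19 rose and 1 fell, which is 21.1% beside 22.1% of all tested genes, with a median log2 change of 0.02. DANCR rose by 0.40 there per the authors' deposited table (DESeq2 adjusted p = 9.35e-06), from 929, 935 and 888 to 1201, 1184 and 1246 normalized counts, and SNHG7 fell by 0.33 (adjusted p = 0.0260). In BoM-1833 0 of 19 passed with DESeq2 (1 at an unadjusted p under 0.05), the median was -0.18, and 6 of the 19 log2 changes were positive. Over all tested genes there 10.9% passed and the median was -0.0035. For most of these host genes, among them SNHG5 and SNHG7 but not SNHG3 or DANCR, siNT replicate 1 was the highest library of BoM-1833. The median of the list was not taken without that library.

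Of other RNAs linked to Polycomb or chromatin, 11 were tested in MDA-MB-436 but 5 in BoM-1833. One passed, CCAT1 in MDA-MB-436 (9.09%, beside 22.1% of all tested genes), which fell by 0.65 per the authors' deposited table (DESeq2 adjusted p = 0.0478). In BoM-1833 none of the 5 passed with DESeq2, beside 10.9% of all tested genes (1 at an unadjusted p under 0.05). The other 3 expressed there have no adjusted p in the authors' deposited table. Among them UCA1 had 6, 9 and 3 reads in siNT and 27, 20 and 15 in siPHF19 libraries, with no overlap, and a log2 fold change of 2.11 in that table (SE 0.60; DESeq2 unadjusted p = 4.25e-04, with no adjusted p). Of other abundant noncoding RNAs, 2 of 18 passed in MDA-MB-436 (11.1%, beside 22.1%) and 1 of 15 in BoM-1833 (6.67%, beside 10.9%). DLEU1 rose and RN7SL1 fell in MDA-MB-436, with log2 changes of 0.38 and -0.66 (DESeq2 adjusted p = 0.00788 and 0.0114 per the authors' deposited table). LINC00657, also called NORAD, a cytoplasmic RNA that binds Pumilio proteins, fell by 0.22 in BoM-1833 per the authors' deposited table (DESeq2 adjusted p = 0.00512). RN7SL1 has near-identical copies, so its counts are uncertain.

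Of 352 tested genes that GENCODE annotates as long noncoding RNAs 10.2% were called in MDA-MB-436, beside 23.6% of 12323 protein-coding genes. In BoM-1833 the shares were 2.60% of 231 and 11.5% of 11504. Their levels differed too, with a median of the mean normalized counts of 39.0 for the noncoding and 586 for the coding genes in MDA-MB-436. Among genes at 500 or more the shares were 31.8% of 22 and 29.3% of 6674 in MDA-MB-436, and 10.5% of 19 and 15.4% of 6390 in BoM-1833. The difference between classes was not tested.

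Proteins of the bodies that NEAT1 and MALAT1 belong to were examined in the same tables. Of 19 paraspeckle proteins 1 rose and 3 fell in MDA-MB-436 (21.1% called, beside 22.1% of all tested genes), and 1 fell in BoM-1833 (5.26%, beside 10.9%). These shares do not set the list apart. SMARCA4, the SWI/SNF ATPase that is found in paraspeckles, fell in both lines, by 0.47 and 0.52 per the authors' deposited table (DESeq2 adjusted p = 4.37e-12 and 5.92e-17). SFPQ and NONO, which bind NEAT1 in the core of paraspeckles, did not pass in either line, with log2 changes between -0.01 and 0.09 per the authors' deposited table. TARDBP, which binds NEAT1, fell by 0.28 in MDA-MB-436 per the authors' deposited table (DESeq2 adjusted p = 0.0263). Of 19 nuclear speckle proteins 4 fell in MDA-MB-436, with a median of -0.14, and 1 in BoM-1833, again 21.1% and 5.26%. PNN, a speckle-associated splicing protein, fell in both, by 0.48 and 0.23 per the authors' deposited table (DESeq2 adjusted p = 2.03e-05 and 0.0200).

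Of 19 chromatin partners described for these RNAs, 1 rose and 4 fell in MDA-MB-436 (26.3%, beside 22.1% of all tested genes) and 1 fell in BoM-1833 (5.26%, beside 10.9%). AEBP2, an accessory subunit of PRC2, fell by 0.60 in MDA-MB-436 and by 0.36 in BoM-1833 per the authors' deposited table (DESeq2 adjusted p = 3.93e-09 and 0.0211). EHMT2, the H3K9 methyltransferase G9a, fell by 0.46 in MDA-MB-436 per the authors' deposited table (DESeq2 adjusted p = 1.92e-08). EZH2, the PRC2 methyltransferase, did not pass, at 0.14 and 0.20 per the authors' deposited table (DESeq2 adjusted p = 0.154 and 0.0757). Among 19 genes of RNA decay and 3′ end processing 2 fell in MDA-MB-436 (ZFC3H1 and RNASEH2A, 10.5%, beside 22.1% of all tested genes). In BoM-1833 0 passed with DESeq2, beside 10.9% of all tested genes. There 4 of the 19 had a DESeq2 unadjusted p under 0.05, as 15.0% of all genes did.

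Next to MALAT1 and NEAT1 on chromosome 11, 3 of 12 tested neighbours rose and 1 fell in MDA-MB-436 (33.3%, beside 22.1% of all tested genes), and 1 of 11 fell in BoM-1833 (9.09%, beside 10.9%). FRMD8, the gene just upstream of NEAT1, rose by 0.36 in MDA-MB-436 per the authors' deposited table (DESeq2 adjusted p = 0.0385). EHBP1L1, beyond MALAT1, fell by 0.45 there per the authors' deposited table (DESeq2 adjusted p = 3.29e-07). CDC42EP2 rose by 0.30 in MDA-MB-436 and fell by 0.32 in BoM-1833 per the authors' deposited table (DESeq2 adjusted p = 0.0266 and 0.00610). Around TUG1 1 of 6 neighbours fell in each line, SELM in MDA-MB-436 and SMTN in BoM-1833 (16.7%, beside 22.1% and 10.9% of all tested genes). MORC2, the silencing factor gene read away from TUG1, had log2 changes of -0.14 in both lines per the authors' deposited table (DESeq2 adjusted p = 0.285 and 0.322). Beside GAS5, KLHL20 rose in MDA-MB-436, by 0.36 per the authors' deposited table (DESeq2 adjusted p = 0.00749), and ZBTB37, which overlaps GAS5, did not pass in either line.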

How the data were processed

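The authors' deposited tables, one per cell line, hold for each gene the normalized signal of each library, its mean, a log2 fold change with its standard error, a score (the Wald statistic), a p-value and an adjusted p-value. STAR, RSEM 1.3.1, DESeq2 1.46.0 and hg38 are named per the submitters' processing notes, and the gene annotation is not given in the sources used here. Per the file headers, columns name line, siRNA and replicate. Division by size factors gave back whole reads for 100% of values (within 0.05 reads). As RSEM estimates counts, these are taken as rounded estimates.

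The deposited Wald test was the main test in each line, with a call at an adjusted p under 0.05. The difference between lines was a z test of the deposited log2 changes, adjusted by Benjamini-Hochberg. DESeq2 1.42.0 and edgeR 4.0.16 (R 4.3.3), tested on simulated counts, gave the alternatives, among them edgeR, other size factors and filters, a replicate block and leaving out each library. Same-numbered libraries did not deviate together. Of the rows, 22769 (76.0%) matched a GENCODE v29 symbol.

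The members and gene lists were chosen with earlier results of these data known. Named were the 9 RNAs, the 2 genes most like each RNA expressed in both lines, up to 2 called genes per list and line at a mean of at least 50, and PHF19. SKAP2, SFPQ, NONO, EZH2, CDKN1C, KCNQ1, HOXC11, MORC2, ZBTB37, UCA1, DIO3OS and the imprinted genes at 0 were added after their values were seen, as was CDC42EP2 in MDA-MB-436. One item is not reported here and was left out of its gene list. Intervals and limits cover counting error or the fitted spread only.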

Additional observations from a re-analysis of the deposited data

How the results depend on the processing

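NEAT1 was the one call in MDA-MB-436, and it held under other size factors and low-count filters. The count of RNAs called there was 0 with edgeR (beside 24.5% of all genes), 0 at an adjusted p under 0.01, and 0 to 3 with 1 library left out. In BoM-1833 it was 0 to 2 with 1 library left out and 0 under the other alternatives. For the difference between lines it was 0 to 1 with 1 library left out. Those fits called from 301 of 12157 to 1055 of 12260 genes. The replicate numbers did not pair the libraries: the same-number correlations were -0.23, 0.04 and -0.27 in MDA-MB-436 and -0.31, -0.12 and -0.20 in BoM-1833. With the replicate block 0 RNAs were called in MDA-MB-436 (NEAT1 -0.30, DESeq2 adjusted p = 0.0543) and 0 in BoM-1833, and calls over all genes went from 3143 to 1610 and from 1411 to 610. Leaving out 1 library gave 1767 to 3801 calls over all genes of MDA-MB-436, and 746 to 2046 for BoM-1833.

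With 1 library left out, 7 uncalled values changed sign. In MDA-MB-436 MALAT1 ran from -0.026 (without siNT replicate 2) to 0.21, and HOTAIRM1 from -0.0014 (without siPHF19 replicate 2) to 0.16. The difference between lines of MALAT1 was 0.14 without siNT replicate 1 of MDA-MB-436, and 0.02, 0.05 and 0.03 without siNT replicate 2, siNT replicate 3 and siPHF19 replicate 1 of BoM-1833. That of NEAT1 was 0.037 without siNT replicate 1 of MDA-MB-436, and otherwise down to -0.20. The GAS5 difference passed without siNT replicate 1 of MDA-MB-436 (0.57, DESeq2-based adjusted p = 0.00249) or siNT replicate 3 of BoM-1833 (0.54, adjusted p = 0.0272). The TUG1 difference passed without siNT replicate 3 of MDA-MB-436 (0.41, DESeq2-based adjusted p = 0.00753) or siNT replicate 1 of BoM-1833 (0.36, adjusted p = 0.0413). The cause was not tested. Depth limits HOTAIR and KCNQ1OT1, which had 69 and 238 reads over the 6 libraries of the line that expressed them.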

Other observations

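The genes whose levels varied most like each RNA across the 12 libraries, after each line's mean was removed, were listed as a description among 9820 genes. The libraries share their depth and siRNA groups, and no test was made. For NEAT1 they were CDK11A (Pearson r = 0.960), a cyclin-dependent kinase gene linked to splicing, and OXNAD1 (r = 0.960). CDK11A has a near-identical neighbour gene, so its counts are uncertain. For TUG1 they were TBCEL (r = 0.970) and NUP98 (r = 0.969), a nuclear pore gene. For GAS5 they were DDIT3 (r = 0.941), the stress-response transcription factor CHOP, and OSTF1 (r = 0.929). DDIT3 had log2 changes of 0.12 in MDA-MB-436 but -0.45 in BoM-1833 per the authors' deposited table (DESeq2 adjusted p = 0.630 and 0.0525). For MALAT1 they were ACVR2A (r = 0.900), an activin receptor gene, and HACL1 (r = 0.872). MALAT1 and NEAT1 had a Pearson r of 0.442 with each other and a Spearman rho of 0.147.

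Reads of one RNA per read of another were also taken within libraries, as values with no test. NEAT1 reads per GAS5 read were 2.79, 2.46 and 2.79 in siNT and 2.07, 1.85 and 1.89 in siPHF19 libraries of MDA-MB-436. In BoM-1833 they overlapped, at 8.51 ± 0.224 in siNT and 9.11 ± 0.984 in siPHF19 libraries (SD, n = 3 each). MALAT1 reads per GAS5 read were 2.84, 2.62 and 2.92 in siNT and 4.08, 3.23 and 3.56 in siPHF19 libraries of BoM-1833. The MDA-MB-436 groups overlapped for this ratio, at 1.96 ± 0.187 in siNT and 1.84 ± 0.173 in siPHF19 libraries (SD, n = 3 each). Of the 6 pairs among MALAT1, NEAT1, TUG1 and GAS5, 3 were without overlap in MDA-MB-436, while BoM-1833 had 2. Levels of single genes were without overlap for 42.2% of those tested in the former line, beside 31.0% for the latter. No such share was taken over pairs of other genes, so these counts do not set the 6 pairs apart.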
